A study of Mus musculus with 8 samples.

Results

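The Ikaros family of zinc finger transcription factors (Ikzf1, encoding Ikaros; Ikzf2, encoding Helios; Ikzf3, encoding Aiolos; Ikzf4, encoding Eos; Ikzf5, encoding Pegasus) was examined together with Foxp3, the transcription factor that defines regulatory T cells, in antigen-specific mouse helper T cells. The genes were chosen by name, and all 6 were found among the 39179 genes of the count tables. One count table per library was used, with 2 libraries in each of 4 groups: follicular helper (Tfh) cells carrying a Bach2 vector, Tfh cells carrying an empty vector, non-Tfh cells carrying the Bach2 vector and non-Tfh cells carrying the empty vector. All of the cells were Smarta T cells, which carry a transgenic T cell receptor for a viral glycoprotein peptide, from mice crossed to a CreERT2 strain in which tamoxifen activates Cre. They were transduced with retrovirus, placed in C57BL/6 hosts and primed by subcutaneous injection of nitrophenol and GP61-80 on mouse serum albumin. Tamoxifen was given intraperitoneally to induce Bach2 expression on day 5, and 18 hours later, on day 6, Thy-1.1+ CD44hi donor cells were sorted as CXCR5+ PD-1+ (Tfh) or CXCR5- PD-1- (non-Tfh). The labels give the same donor genotype, host, priming and injection for all 4 groups. The inguinal lymph nodes were pooled and the labels do not say whether the libraries of a group came from separate animals, so p-values measure the spread between these libraries, which may be technical.

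Ikaros family proteins bind DNA through a cluster of C2H2 zinc fingers near the amino terminus and pair with each other through a second cluster at the carboxy terminus. They act largely by bringing chromatin complexes such as NuRD to their targets, and lymphocytes carry several members at once. Ikaros is present throughout the lymphoid lineage, Helios and Eos are best known from regulatory T cells, where Eos acts with Foxp3, and Aiolos is known from B cells and differentiated helper cells. Bach2 is a transcriptional repressor that restrains effector differentiation of T cells.

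The coding sequence of the second finger of each family member is shown because it lies in the DNA-binding cluster and shows how alike the 5 genes are over the part that reads of one gene could share with another. Capitals mark the codons of the paired cysteines and histidines that hold the zinc, and each line runs 5′ to 3′ on the coding strand (GENCODE M21, GRCm38).
Ikzf1: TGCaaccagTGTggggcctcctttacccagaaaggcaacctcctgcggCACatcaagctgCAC
Ikzf2: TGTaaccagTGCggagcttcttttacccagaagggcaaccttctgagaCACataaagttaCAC
Ikzf3: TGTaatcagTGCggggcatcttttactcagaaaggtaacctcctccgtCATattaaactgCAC
Ikzf4: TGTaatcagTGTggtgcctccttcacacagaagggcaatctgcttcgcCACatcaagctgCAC
Ikzf5: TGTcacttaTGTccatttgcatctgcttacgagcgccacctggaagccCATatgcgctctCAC
Over these 63 bases Ikzf1, Ikzf2, Ikzf3 and Ikzf4 were 76.2% to 84.1% identical to each other, and 41.3% to 47.6% identical to Ikzf5. A search of the coding sequences for fingers with this spacing of cysteines and histidines found 5 in Ikzf1, Ikzf2, Ikzf3 and Ikzf4. It found 4 in Ikzf5. Fingers with a wider spacing were not searched for, so these are not full counts of the fingers. Between the longest coding transcripts of the 5 genes, the longest stretch that any pair had in common ran to 32 bases (Ikzf2 and Ikzf4). That is shorter than the 75 bases of a read. Other transcripts of these genes were not compared.

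The libraries held 7862879 to 9889859 counts. Of the 39179 genes, 11475 passed a filter on low counts, among them all 6 examined here. A count of 3 corresponded to a CPM (the count scaled to library size) of 0.301 to 0.38, and intervals on counts below cover counting error only. Bach2 itself was at 121 and 135 CPM in Bach2 Tfh libraries, against 11.2 and 14.1 CPM in empty vector Tfh libraries, and at 130.5 and 158 CPM in Bach2 non-Tfh libraries, against 24.9 and 28.9 CPM in empty vector non-Tfh libraries, so every library matched its vector label. Cd4 and Cd3e were high in all 8 libraries. Cxcr5, the chemokine receptor of the sort, was at 576 to 815 CPM in the 4 Tfh libraries and at 17.4 to 28.2 CPM in the 4 non-Tfh libraries. The 9 B cell markers summed to 159.9 to 236 CPM in Tfh libraries and 82.9 to 129 CPM in non-Tfh libraries, nearly all of it Cd22, which was higher in Tfh cells (means of 172 and 211 CPM in Bach2 and empty vector Tfh cells, against 85.9 and 120.0 CPM in Bach2 and empty vector non-Tfh cells). The other B cell markers summed to 2.42 to 6.12 CPM in Tfh libraries and 3.78 to 13.7 CPM in non-Tfh libraries. The part of other cells in the results was not tested. The natural killer cell receptor gene Ncr1 was at 0 in all 8 libraries. Myeloid markers summed to 4.11 to 12.01 CPM over the 8 libraries, and the CD8 T and NK cell markers summed to 74.8 to 113 CPM in Tfh libraries and 23.8 to 36.4 CPM in non-Tfh libraries. Klrb1c made up most of the last sum in Tfh cells, whereas Klrb1c and Cd8b1 were about level in non-Tfh cells, at means of 17.1 and 16.9 CPM with the Bach2 vector and 13.0 and 13.8 CPM with the empty vector.

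Ikzf2 and Ikzf3 were higher in Tfh than in non-Tfh cells, past the test under either vector and in all 14 alternatives. No member passed the main test for a change with the Bach2 vector in either cell type. Ikzf3 in non-Tfh cells passed that comparison in 3 of 14 alternatives. Ikzf1 was the most abundant member in every library, and Ikzf4 and Foxp3 were near the detection limit in Tfh cells. Differences were tested with edgeR's quasi-likelihood test and Benjamini-Hochberg adjustment over all genes tested, at an adjusted p of 0.05. Between the Bach2 Tfh and Bach2 non-Tfh groups, 3 of the 6 members were called, where 24.4% of all genes tested were called, and between the empty vector groups 2 of 6 were called, where 21.9% of all genes were. The libraries of Tfh and non-Tfh cells did not overlap for 6 of 6 members under the Bach2 vector, against 59.8% of all genes, and for 4 of 6 under the empty vector, against 62.2%.

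**Figure D1:**
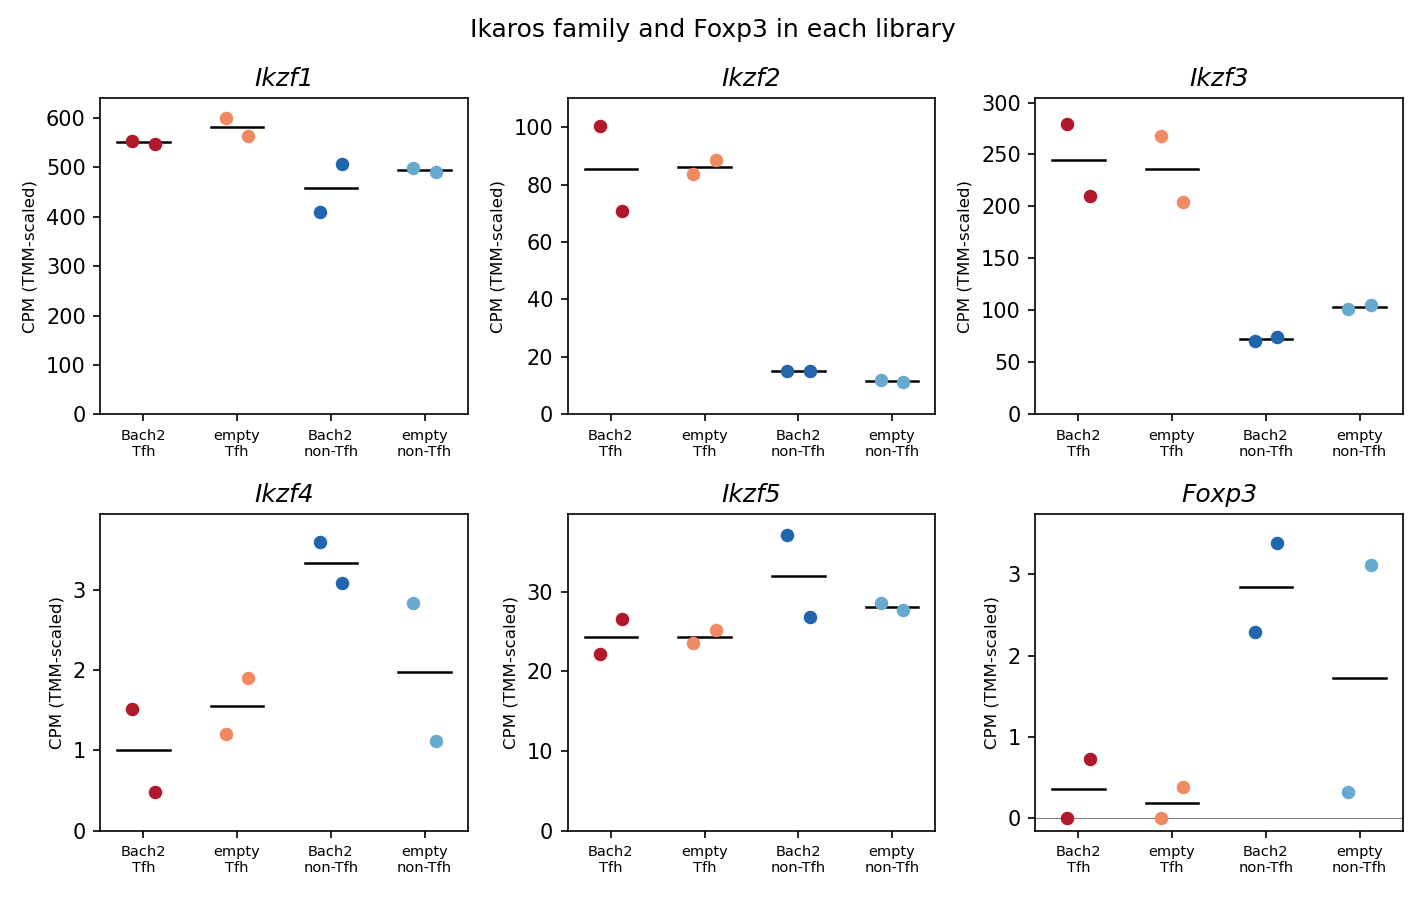
Level of each of the 6 genes in every library, in CPM scaled by TMM factors (linear axes, 1 panel a gene). Points are the 2 libraries of a group and the bar is their mean; Ikzf2 was at 70.8 CPM or more in all 4 Tfh libraries and at 15.1 CPM or less in all 4 non-Tfh libraries.

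Ikzf2 (ENSMUSG00000025997) encodes Helios and lies on the minus strand of chromosome 1 (chr1:69531214-69687245, GRCm38). It was at 100.5 and 70.8 CPM in Bach2 Tfh libraries and 83.6 and 88.6 CPM in empty vector Tfh libraries, against 14.9 and 15.1 CPM in Bach2 non-Tfh libraries and 11.9 and 11.1 CPM in empty vector non-Tfh libraries. Every Tfh library was above every non-Tfh library, and the Bach2 Tfh libraries enclosed the empty vector ones. With the Bach2 vector Ikzf2 was 5.70-fold higher in Tfh than in non-Tfh cells (log2 2.51, SE 0.164, adjusted p = 1.65e-07, edgeR), and with the empty vector 7.47-fold higher (log2 2.90, SE 0.169, adjusted p = 5.53e-08). The vector made a difference of -0.01 on the log2 scale in Tfh cells (SE 0.145, adjusted p = 0.991). In non-Tfh cells both Bach2 libraries lay above both empty vector libraries, by 0.38 on the log2 scale (95% interval -0.01 to 0.78), which missed the threshold in edgeR's test (unadjusted p = 0.0549, adjusted p = 0.502). The libraries of the 2 vectors did not overlap for 3 of 6 members in non-Tfh cells (Ikzf2, Ikzf3 and Ikzf4), against 42.2% of all genes tested, and for 1 of 6 in Tfh cells (Ikzf1), against 44.6%.

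Ikzf3 (ENSMUSG00000018168), which encodes Aiolos, lies on the minus strand of chromosome 11 (chr11:98464902-98546031). In Tfh cells it reached 279 and 209.9 CPM with the Bach2 vector and 268 and 204 CPM with the empty vector, against 70.4 and 74.3 CPM in Bach2 non-Tfh libraries and 101 and 105 CPM in empty vector non-Tfh libraries. The Tfh libraries all lay above the non-Tfh libraries, those of the 2 vectors overlapped in Tfh cells, and both Bach2 libraries lay below both empty vector libraries in non-Tfh cells. Under the Bach2 vector Ikzf3 was 3.38-fold higher in Tfh than in non-Tfh cells (log2 1.76, SE 0.154, adjusted p = 2.15e-05, edgeR) and 2.29-fold higher with the empty vector (log2 1.19, SE 0.151, adjusted p = 0.000276). Replicate 1 was the higher library for Ikzf3 in both Tfh groups, and so were the sort markers: Pdcd1, which encodes PD-1, was at 613 and 381 CPM in replicates 1 and 2 of Bach2 Tfh cells and at 659 and 454 CPM in those of empty vector Tfh cells. The part of this spread in the Ikzf3 levels was not tested.

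Bach2 and empty vector non-Tfh cells differed in Ikzf3 by -0.51 on the log2 scale (SE 0.155, 95% interval -0.86 to -0.17). The adjusted p was 0.240 in edgeR's test over all genes, with an unadjusted p of 0.00776, so the difference did not pass. Ikzf3 was the 1 member with an unadjusted p below 0.05 in that comparison, where 1188 of the 11475 genes had one. Adjusted p-values over the alternatives ran between 7.14e-05 without the filter on low counts and 0.796, and 3 of them passed, DESeq2 (0.0498) and a fit of only the 2 non-Tfh groups (0.0334) included. In Tfh cells the difference was 0.05 (SE 0.146, adjusted p = 0.909). The difference between the 2 vector effects was 0.56 (SE 0.213, unadjusted p = 0.0240, adjusted p = 0.985).

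Ikzf1 (ENSMUSG00000018654), the founding member, lies on the plus strand of chromosome 11 (chr11:11685003-11772926). Its level was 553 and 548 CPM in Bach2 Tfh libraries and 601 and 565 CPM in empty vector Tfh libraries, against 409 and 507 CPM in Bach2 non-Tfh libraries and 498 and 491 CPM in empty vector non-Tfh libraries. The Tfh libraries lay above the non-Tfh libraries, both Bach2 Tfh libraries lay below both empty vector Tfh libraries, and the spread within Bach2 non-Tfh cells was the widest of the 4 groups. Tfh over non-Tfh differences of 0.27 with the Bach2 vector (adjusted p = 0.0560) and 0.24 with the empty vector (SE 0.0946, adjusted p = 0.0932) missed the threshold in edgeR's test. For the Bach2 vector 3 of 14 alternatives passed (adjusted p between 0.0095 and 0.486). The Bach2 difference was 0.43 and passed without replicate 2 of Bach2 non-Tfh cells (adjusted p = 0.0095), and was 0.12 without replicate 1 (0.486). For the empty vector 2 of 14 passed (0.0391 to 0.335), no filter and only the groups compared. Vector effects were -0.08 in Tfh cells (95% interval -0.28 to 0.12, adjusted p = 0.741) and -0.11 in non-Tfh cells (adjusted p = 0.761).

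Ikzf4 (ENSMUSG00000002578), which encodes Eos, a partner of Foxp3 in repression, lies on the minus strand of chromosome 10 (chr10:128630843-128645991) and was detected at few counts. It had 14 and 4 counts in Bach2 Tfh libraries and 12 and 15 in empty vector Tfh libraries, against 33 and 30 in Bach2 non-Tfh libraries and 26 and 10 in empty vector non-Tfh libraries. The Bach2 groups did not overlap between cell types, whereas the empty vector groups did, and in non-Tfh cells both Bach2 libraries lay above both empty vector libraries. Ikzf4 was lower in Bach2 Tfh than in Bach2 non-Tfh cells by edgeR's test (log2 -1.70, SE 0.573, 95% interval -2.93 to -0.47, adjusted p = 0.0442). Pooled over libraries that was 18 against 63 counts, a depth-scaled ratio of 0.309 (95% counting interval 0.172 to 0.528). The call passed in 9 of 14 alternatives and was lost in DESeq2 (adjusted p = 0.0806), without robust fitting (0.0517), without replicate 2 of Bach2 Tfh cells (0.227, log2 -1.13), and without replicate 1 (0.146) or replicate 2 (0.0955) of Bach2 non-Tfh cells. With the empty vector the difference was -0.37 (adjusted p = 0.711). Vector effects of -0.58 in Tfh cells (SE 0.631, 95% interval -1.93 to 0.78, adjusted p = 0.724) and 0.75 in non-Tfh cells (SE 0.520, 95% interval -0.36 to 1.87, adjusted p = 0.682) did not pass edgeR's test. Pooled Bach2 over empty vector ratios were 0.681 in Tfh cells (18 against 27 counts, counting interval 0.353 to 1.28) and 1.68 in non-Tfh cells (63 against 36 counts, 1.10 to 2.61). These counting intervals leave out the spread between libraries.

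Ikzf5 (ENSMUSG00000040167), which encodes Pegasus, the most divergent member, lies on the minus strand of chromosome 7 (chr7:131388652-131410521). Its values of 22.1 and 26.6 CPM in Bach2 Tfh libraries and 23.6 and 25.2 CPM in empty vector Tfh libraries overlapped, as did 37.1 and 26.8 CPM in Bach2 non-Tfh libraries and 28.6 and 27.7 CPM in empty vector non-Tfh libraries. Between cell types the libraries did not overlap under either vector, the Tfh ones being lower, but no comparison passed, and Tfh over non-Tfh differences were -0.39 with the Bach2 vector (adjusted p = 0.112, edgeR) and -0.21 with the empty vector (adjusted p = 0.435). The Bach2 difference was -0.61 and passed without replicate 2 of Bach2 non-Tfh cells (adjusted p = 0.0289), and was -0.14 without replicate 1 (0.675); it passed in no other of 14 alternatives. Ikzf5 shares 4652 of its 5721 exonic bases with Pstk, a gene on the opposite strand that was at 15.1 to 17.5 CPM. The library kit does not mark strand, so reads in the shared exons cannot be told apart and the Ikzf5 level is uncertain.

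Foxp3 (ENSMUSG00000039521) lies on the plus strand of chromosome X (chrX:7573644-7595245). It had 0 and 6 counts in Bach2 Tfh libraries and 0 and 3 in empty vector Tfh libraries, against 21 and 33 in Bach2 non-Tfh libraries and 3 and 28 in empty vector non-Tfh libraries. In CPM Foxp3 was at 0 and 0.725 in Bach2 Tfh libraries and 0 and 0.38 in empty vector Tfh libraries, against 2.29 and 3.39 in Bach2 non-Tfh libraries and 0.327 and 3.12 in empty vector non-Tfh libraries. The Foxp3 level in Tfh cells was at or near 0 in every library, and the 2 empty vector non-Tfh libraries disagreed beyond counting error, with 95% intervals of 0.0675 to 0.956 CPM and 2.07 to 4.50 CPM. Summed over each group, Tfh over non-Tfh ratios were 0.120 with the Bach2 vector (6 against 54 counts, counting interval 0.0422 to 0.279) and 0.0983 with the empty vector (3 against 31 counts, 0.0192 to 0.315). In each of the 4 groups the library numbered 2 had the higher Foxp3 count, with 24 counts over the 4 libraries numbered 1 and 70 over the 4 numbered 2. The counting intervals leave out the spread between libraries. In edgeR's test, which includes it, neither difference passed, at log2 -2.99 with the Bach2 vector (adjusted p = 0.101) and -3.23 with the empty vector (unadjusted p = 0.0491, adjusted p = 0.147). The outcome depended on the processing, with 5 of 14 alternatives passing for the Bach2 vector (adjusted p between 0.000293 and 0.35) and 3 of 13 for the empty vector (0.00149 to 0.814). Without the filter both passed, as did the Bach2 difference in a fit of only its 2 groups (adjusted p = 0.0229) or without replicate 1 (0.0367) or 2 (0.0374) of empty vector non-Tfh cells, and the empty vector difference without replicate 1 of empty vector non-Tfh cells (0.0338). A replicate block, which adds the library number to edgeR's fit, also passed both differences (adjusted p = 0.00726 with the Bach2 vector and 0.0315 with the empty vector). Leaving out 1 library gave log2 values between -7.71, without replicate 2 of Bach2 Tfh cells, and -1.95, without replicate 1, for the Bach2 vector. For the empty vector they lay between -6.99, without replicate 2 of Tfh cells, and -0.88, without replicate 2 of non-Tfh cells.

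Bach2 over empty vector ratios of Foxp3 were 2.04 in Tfh cells (6 against 3 counts, counting interval 0.436 to 12.6) and 1.67 in non-Tfh cells (54 against 31 counts, 1.06 to 2.69). The fitted vector effects, 0.97 in Tfh cells (SE 1.88, adjusted p = 0.861) and 0.73 in non-Tfh cells (adjusted p = 0.869, edgeR), had errors too wide to give a direction. Foxp3 passed the filter through its non-Tfh libraries. In bulk RNA fewer cells of a type and less RNA per cell cannot be told apart. Exons of Foxp3 overlap those of the long noncoding gene Flicr by 853 bases, of Ccdc22 by 590 bases and of Ppp1r3f by 266 bases. Flicr had 0 to 5 counts in each library, Ccdc22 was at 0 in all 8 and Ppp1r3f had 14 to 21 counts in each library. Counts of Foxp3 are therefore uncertain in the shared exons.

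With the Bach2 vector 0 of 6 members were called in Tfh cells, where 1.71% of all genes were, and 0 of 6 in non-Tfh cells, where 0.871% were. An unadjusted p below 0.05 in edgeR's test was seen for 0 members in Tfh cells and for 1 in non-Tfh cells, Ikzf3. Of the 11475 genes, 1823 in Tfh cells and 1188 in non-Tfh cells had such a p. DESeq2 called 0 and 1 members, and 326 and 161 of all genes. Averaged over both cell types, edgeR and DESeq2 each called 0 of 6, and 5.27% of all genes were called by edgeR. None of the 6 had an unadjusted p below 0.05 there, where 2322 of all genes did. No gene of the 11475 passed edgeR's test of the difference between the vector effects; 539 had an unadjusted p below 0.05, DESeq2 called 4, and of the members 1, Ikzf3, was among the 539.

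**Figure D2:**
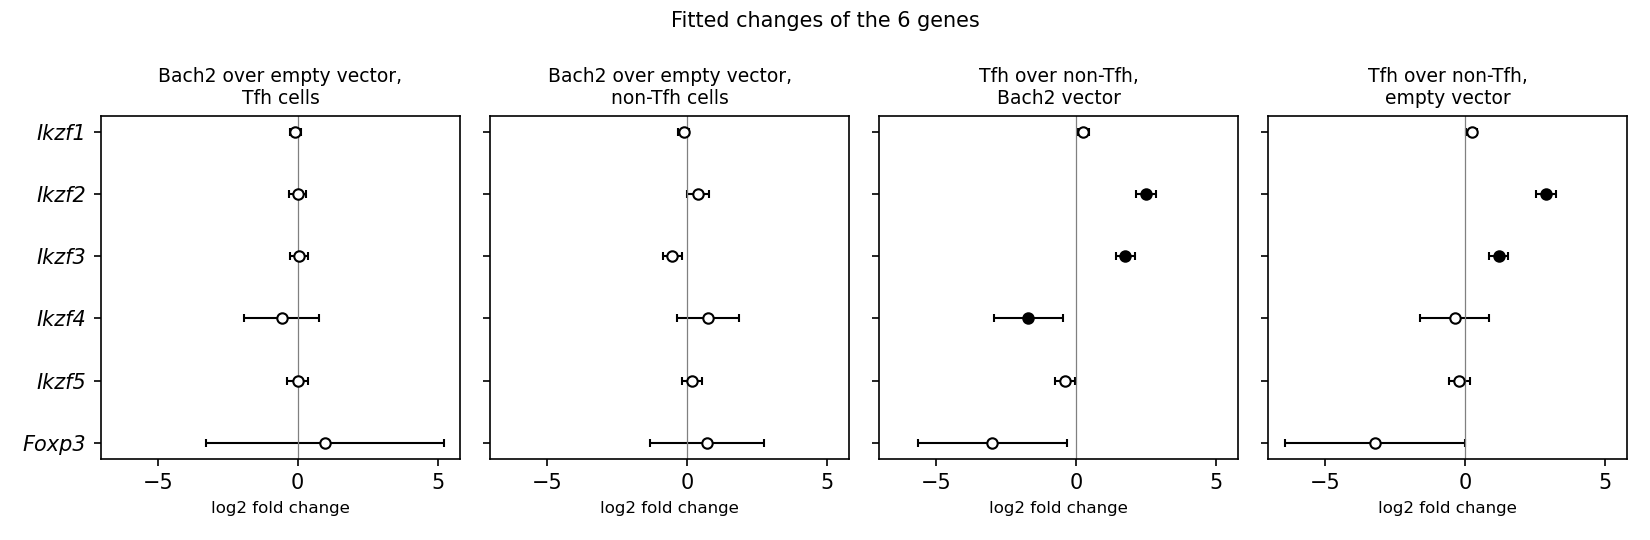
Fitted log2 fold change of each gene in 4 comparisons, named above the panels, with 95% intervals from edgeR's quasi-likelihood fit. Filled points passed an adjusted p of 0.05: Ikzf2 and Ikzf3 in both Tfh over non-Tfh panels and Ikzf4 in that of the Bach2 vector.

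To compare levels between genes, counts were scaled per length (TPM, with the union of a gene's exons as length). The summed TPM of the 5 Ikaros family genes was 348 ± 3.04 in Bach2 Tfh cells and 358 ± 24.5 in empty vector Tfh cells, against 251 ± 28.6 in Bach2 non-Tfh cells and 267 ± 7.99 in empty vector non-Tfh cells (SD, n = 2 each). Ikzf1 made up 70.7% and 72.2% of that sum in Bach2 and empty vector Tfh cells, against 83.3% and 82.6% in Bach2 and empty vector non-Tfh cells. The share of Ikzf3 was 20.6% and 19.2% in Bach2 and empty vector Tfh cells, against 8.74% and 11.4% in Bach2 and empty vector non-Tfh cells. That of Ikzf2 was 5.43% and 5.32% in Bach2 and empty vector Tfh cells, against 1.37% and 0.956% in Bach2 and empty vector non-Tfh cells. The family total in Tfh cells thus held more Aiolos and Helios transcript per Ikaros transcript.

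The order of TPM levels in all 4 Tfh libraries was Ikzf1, Ikzf3, Ikzf2, Ikzf5, with Ikzf4 and Foxp3 last. In all 4 non-Tfh libraries Ikzf5 stood above Ikzf2, and the order was otherwise the same. These orders held with the longest coding transcript as length, although the shares moved: Ikzf1 then made up 56.8% and 58.7% in Bach2 and empty vector Tfh cells, against 75.02% and 72.6% in the non-Tfh groups. The place of Ikzf5 and its part of the sum stay uncertain at either length. That is because 4652 of its 5721 exonic bases are shared with Pstk. The ratio of 1 gene to another can be compared between groups whatever their lengths, and Ikzf3 was at 50.5% and 38.3% of the CPM of Ikzf1 in Bach2 Tfh libraries and 44.6% and 36.2% in empty vector Tfh libraries, against 17.2% and 14.7% in Bach2 non-Tfh libraries and 20.3% and 21.4% in empty vector non-Tfh libraries. The lowest Tfh library thus stood above the highest non-Tfh library.

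**Figure D3:**
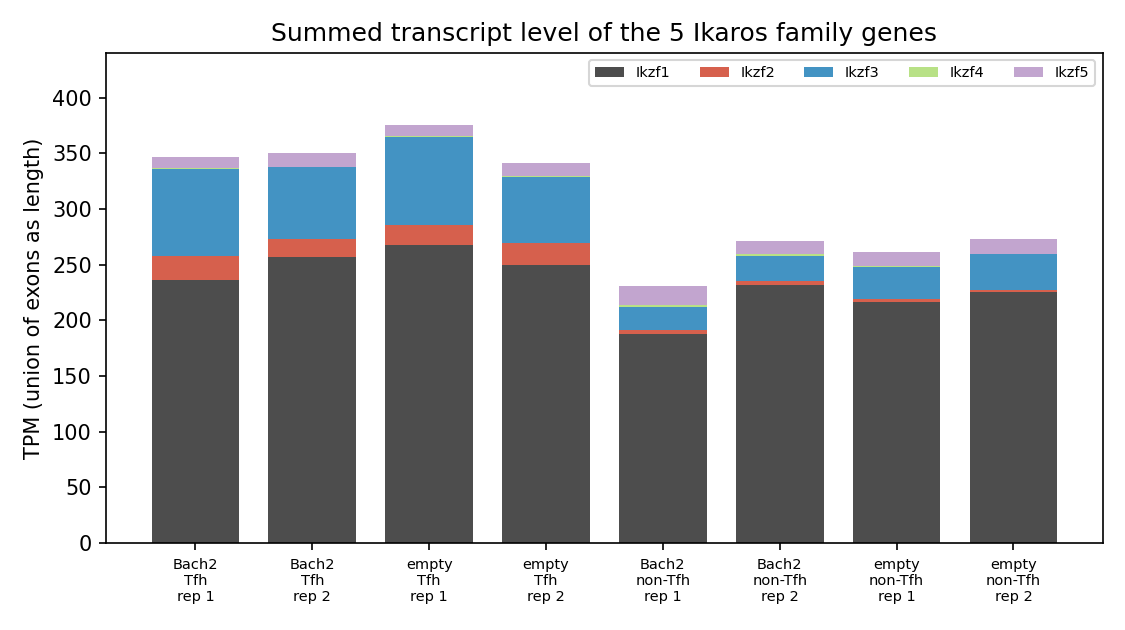
Summed TPM of the 5 Ikaros family genes in each of the 8 libraries, stacked by gene (linear axis from 0, union of exons as length). Ikzf1 is the tallest segment throughout, and the Ikzf3 and Ikzf2 segments are taller in the 4 Tfh bars on the left than in the 4 non-Tfh bars on the right.

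The genes most like each member were taken as the 3 tested genes with the highest Pearson correlation of log2 CPM over the 8 libraries, which share depth and group. For Ikzf2 these were Hadhb (r = 0.997), Mpp1 (0.995) and Ica1l (0.995). Ica1l averaged 50.04 CPM in Bach2 Tfh cells and 48.8 CPM in empty vector Tfh cells, against 9.14 CPM in Bach2 non-Tfh cells and 6.99 CPM in empty vector non-Tfh cells. Hadhb changed less, at means of 202 and 197 CPM in Bach2 and empty vector Tfh cells, against 144 and 139 CPM in the non-Tfh groups. A high correlation thus did not mean a change of like size. For Ikzf3 they were Slc9a9 (0.994), Prpf18 (0.994) and Atp1b1 (0.993), of which Slc9a9 averaged 272 CPM in Bach2 Tfh cells and 298 CPM in empty vector Tfh cells, against 95.7 CPM in Bach2 non-Tfh cells and 131 CPM in empty vector non-Tfh cells. Prpf18 averaged 199 and 201 CPM in Bach2 and empty vector Tfh cells, against 167 and 175 CPM in the non-Tfh groups. The closest to Ikzf1 was Fbxw11 (0.979), to Ikzf4 Dusp4 (0.978), to Ikzf5 Filip1 (0.942) and to Foxp3 Fchsd2 (0.975). Filip1 averaged 0.177 CPM in empty vector Tfh cells and 1.24 CPM in Bach2 non-Tfh cells, near the detection limit. The correlations of Ikzf4 and Foxp3 rest on the few counts of these 2 members.

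Of a list of 23 genes typical of regulatory and follicular regulatory T cells, 21 were tested. Comparing Tfh with non-Tfh cells, 5 of them were higher and 12 lower under the Bach2 vector, and 5 were higher and 11 lower under the empty vector. Over all genes tested, 11.6% were higher and 12.7% lower with the Bach2 vector, and 10.6% higher and 11.3% lower with the empty vector. The list's median log2 difference was -0.58 with the Bach2 vector and -0.43 with the empty vector, while that of all genes was below 0.01 in size. Klrg1 and Socs2, both among the lower, passed the filter on low counts through their non-Tfh libraries. In Bach2 and empty vector Tfh cells Klrg1 had 0 and 4 pooled counts, against 84 and 82 in the non-Tfh groups. Socs2 had 17 and 12, against 125 and 125.

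Il2ra, which encodes the high-affinity interleukin 2 receptor chain of regulatory and effector T cells, was at 4.56 and 6.52 CPM in Bach2 Tfh libraries and 9.03 and 7.09 CPM in empty vector Tfh libraries, against 86.2 and 103 CPM in Bach2 non-Tfh libraries and 123 and 130.4 CPM in empty vector non-Tfh libraries. All Tfh libraries were below all non-Tfh libraries (log2 -4.10, SE 0.176, adjusted p = 5.59e-09 with the Bach2 vector; -3.96, SE 0.166, adjusted p = 8.13e-09 with the empty vector; edgeR). Itgae, an integrin chain of tissue-resident cells, and Entpd1, the ectonucleotidase CD39, were lower in Tfh cells under both vectors, at log2 -2.42 and -3.19 with the Bach2 vector and -3.42 and -3.36 with the empty vector. Prdm1, which encodes Blimp-1, was also called lower under both vectors. Its log2 difference was -3.43 with the empty vector, and its means were 2.36 CPM in Bach2 Tfh cells and 12.3 CPM in Bach2 non-Tfh cells. In the opposite direction, Lag3, an inhibitory receptor, was higher in Bach2 Tfh than in Bach2 non-Tfh cells (log2 1.83, adjusted p = 4.11e-07). The 5 higher under both vectors were Lag3, Tnfrsf9, Izumo1r, Nt5e and Gpr83, the last 3 of them named here after their values were seen. Izumo1r, which encodes folate receptor 4, was at 404 and 338 CPM in Bach2 Tfh libraries and 308 and 229 CPM in empty vector Tfh libraries, against 121 and 99.2 CPM in Bach2 non-Tfh libraries and 91.8 and 60.9 CPM in empty vector non-Tfh libraries. Nt5e, the ectonucleotidase CD73, averaged 210.4 CPM in Bach2 Tfh cells and 134 CPM in empty vector Tfh cells, against 44.7 CPM in Bach2 non-Tfh cells and 49.1 CPM in empty vector non-Tfh cells. The signature genes thus did not all lie on 1 side. Ctla4, an inhibitory receptor listed with Foxp3 as a marker of regulatory T cells, was at 38.6 and 47.0 CPM in Bach2 Tfh libraries, against 90.3 and 93.9 CPM in Bach2 non-Tfh libraries. Tnfrsf18, which encodes GITR, was at 95.2 to 118 CPM in the 4 Tfh libraries and 125 to 139 CPM in the 4 non-Tfh libraries.

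Among non-Tfh cells, 3 of the 21 were lower with the Bach2 vector, against 0.619% of all genes, and 0 were higher, against 0.253%. Tnfrsf9, which encodes the costimulatory receptor 4-1BB, was at 33.5 and 32.3 CPM in Bach2 non-Tfh libraries, against 71.8 and 56.1 CPM in empty vector non-Tfh libraries (log2 -0.96, SE 0.135, adjusted p = 0.00416, edgeR). Prdm1 was at 10.04 and 14.5 CPM in Bach2 non-Tfh libraries, against 29.7 and 27.4 CPM in empty vector non-Tfh libraries (log2 -1.21, adjusted p = 0.0212), and Lag3 was lower by the third of the calls (log2 -0.68, adjusted p = 0.0281). The Prdm1 call was lost without replicate 1 (0.206) or replicate 2 (0.165) of empty vector non-Tfh cells or replicate 1 of Bach2 non-Tfh cells (0.134), the Lag3 call without replicate 2 of empty vector non-Tfh cells (0.415) or replicate 1 (0.143) or 2 (0.0693) of Bach2 non-Tfh cells, and the Tnfrsf9 call without replicate 1 of empty vector non-Tfh cells (0.0677). The count fell to 1 without replicate 1 or replicate 2 of empty vector non-Tfh cells or without replicate 1 of Bach2 non-Tfh cells. In Tfh cells Tnfrsf9 alone passed, where 1.16% of all genes were lower, at 61.0 and 52.3 CPM in Bach2 libraries, against 85.7 and 86.6 CPM in empty vector libraries (log2 -0.60, adjusted p = 0.0302), a call lost without replicate 1 (adjusted p = 0.075) or replicate 2 (0.176) of empty vector Tfh cells or replicate 2 of Bach2 Tfh cells (0.201).

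All 31 genes of a list of Foxp3 regulators and partners were tested. In Tfh cells 5 were higher with the Bach2 vector and 0 lower, against 0.549% of all genes higher and 1.16% lower, with a list median of 0.12 on the log2 scale. Foxp1, a forkhead factor that maintains quiescence, was at 193 and 205 CPM in Bach2 Tfh libraries, against 129 and 137 CPM in empty vector Tfh libraries (log2 0.59, SE 0.0836, adjusted p = 0.00572, edgeR). The Bach2 libraries lay above the empty vector libraries for Foxp1 and for each of the others: Runx1, a Runt factor that binds with Foxp3 (log2 0.71, adjusted p = 0.0104), Lef1, a high-mobility-group factor of the Wnt pathway (0.53, adjusted p = 0.0112), Foxo1, a forkhead factor upstream of Foxp3 (0.42, adjusted p = 0.0178), and Gata3, the factor of type 2 helper cells (0.45, adjusted p = 0.0465).

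Foxp1 passed without any 1 library. The Runx1 call was lost without replicate 2 of empty vector Tfh cells (adjusted p = 0.107, edgeR) or of Bach2 Tfh cells (0.0676), the Lef1 call without replicate 2 of empty vector Tfh cells (0.0703) and the Foxo1 call without any 1 of the 4 Tfh libraries (0.0551 to 0.111), and the count of 5 fell to 1 without replicate 2 of empty vector Tfh cells, to 2 without replicate 2 of Bach2 Tfh cells and to 3 without replicate 1 of empty vector Tfh cells. In non-Tfh cells 1 of the 31 was higher and 0 lower, against 0.253% of all genes higher and 0.619% lower. That gene was Lef1, at 265 and 247 CPM in Bach2 non-Tfh libraries, against 183 and 156 CPM in empty vector non-Tfh libraries (log2 0.59, SE 0.0916, adjusted p = 0.00748, edgeR), a call lost without replicate 2 of empty vector non-Tfh cells (0.147). In Tfh over non-Tfh cells 8 were higher and 5 lower with either vector. Over all genes 11.6% were higher and 12.7% lower with the Bach2 vector, and 10.6% higher and 11.3% lower with the empty vector. Nfatc1, an NFAT factor of T cell receptor signalling, was higher (log2 1.38 with the Bach2 vector and 1.22 with the empty vector), as was Tcf7, which encodes TCF-1 (1.02 and 1.11). Runx3, a Runt factor of cytotoxic and type 1 cells, was lower (-1.38 and -1.70). The count with the empty vector was 5 without replicate 1 of empty vector Tfh cells and 7 without replicate 2 of empty vector non-Tfh cells.

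Genes encoding partners of Ikaros proteins were examined next. Of 14 NuRD genes, which encode a nucleosome remodelling and deacetylase complex, 0 passed for the vector in Tfh cells, where 1.71% of all genes did, and 1 in non-Tfh cells, where 0.871% did. That gene was Chd3, which encodes a remodelling ATPase of the complex. Chd3 was at 82.0 and 94.1 CPM in Bach2 non-Tfh libraries, against 58.0 and 56.4 CPM in empty vector non-Tfh libraries (log2 0.62, SE 0.116, adjusted p = 0.0207, edgeR). Both Bach2 libraries were above both empty vector libraries, and the call was lost without replicate 1 (adjusted p = 0.174) or replicate 2 (0.234) of empty vector non-Tfh cells or replicate 2 of Bach2 non-Tfh cells (0.211). Chd3 was lower in Bach2 Tfh than in Bach2 non-Tfh cells (log2 -0.63, adjusted p = 0.00112, edgeR), where Mta3, another NuRD subunit, was higher (0.31, adjusted p = 0.0313). Over all genes 12.7% were lower and 11.6% higher in that comparison, and 11.3% were lower in Tfh cells with the empty vector. The Mta3 call was lost without either non-Tfh replicate of the empty vector (0.0523 and 0.0567), without replicate 1 of Bach2 Tfh cells (0.188) and without replicate 1 (0.146) or 2 (0.0768) of Bach2 non-Tfh cells. With the empty vector 1 of 14 was lower in Tfh cells, the methyl-DNA binding subunit Mbd2 (-0.28, adjusted p = 0.0195), a call lost without any 1 of the 4 empty vector libraries (0.0608 to 0.154).

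Of 11 genes of the CtBP, Sin3, BAF and PRC2 corepressor and remodelling complexes, 0 passed for the vector in either cell type (1.71% of all genes in Tfh cells and 0.871% in non-Tfh cells) and 0 between cell types with the empty vector (21.9% of all genes). With the Bach2 vector 2 were lower in Tfh cells, where 12.7% of all genes were: Eed, a PRC2 subunit (log2 -0.35, adjusted p = 0.0179, edgeR), and Smarcc1, a BAF subunit (-0.32, adjusted p = 0.0268). The Smarcc1 call was also lost without replicate 2 of Bach2 Tfh cells (0.0927). The count was 0 without replicate 1 of Bach2 Tfh cells and 1 without replicate 1 or replicate 2 of Bach2 non-Tfh cells. Of 13 genes that modify Ikaros proteins, which include the cereblon ubiquitin ligase, casein kinase 2 and protein phosphatase 1, 0 passed for the vector in either cell type, and 1 with the Bach2 vector and 2 with the empty vector were higher in Tfh cells, where 11.6% and 10.6% of all genes were. Cul4b, a cullin scaffold, was higher in Tfh than in non-Tfh cells under the Bach2 vector (0.53, adjusted p = 0.00229) and under the empty vector (0.39, adjusted p = 0.0183), where Ppp1cb, a phosphatase catalytic subunit, was also higher (0.23, adjusted p = 0.0484). With the empty vector the Cul4b call was lost without 3 of the 4 empty vector libraries (0.0791 to 0.128, replicate 2 of Tfh cells being the exception), and the Ppp1cb call without 7 of the 8 libraries (0.0508 to 0.244, replicate 2 of Bach2 Tfh cells being the exception).

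Of 17 genes reported as targets of Ikaros family members in T cells, 13 were tested. In Tfh over non-Tfh cells 2 were higher and 8 lower with either vector, where 11.6% of all genes were higher and 12.7% lower with the Bach2 vector and 10.6% and 11.3% with the empty vector, with list medians of -0.79 with the Bach2 vector and -0.65 with the empty vector. The 2 higher were Bcl6, the lineage factor of Tfh cells (log2 2.87 with the Bach2 vector and 2.72 with the empty vector), and Il4, a Tfh cytokine. Il4 had 144 and 221 pooled counts in Bach2 and empty vector Tfh cells, against 2 and 4 in Bach2 and empty vector non-Tfh cells. Il4 thus passed the filter on low counts only through its Tfh libraries. Those lower with either vector included Il2ra, Gata3 (-0.89 and -1.30) and Prdm1. Several of these genes, Bcl6 among them, mark or oppose the sorted phenotype itself.

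Of the 13, the Bach2 vector came with 1 higher and 2 lower in non-Tfh cells (0.253% and 0.619% of all genes), and 1, Gata3, higher in Tfh cells (0.549% of all genes). Ifng, the type 1 cytokine interferon gamma, was at 32.3 and 35.5 CPM in Bach2 non-Tfh libraries, against 93.0 and 70.5 CPM in empty vector non-Tfh libraries (log2 -1.27, SE 0.198, adjusted p = 0.0128, edgeR). Bcl2, the antiapoptotic factor, was at 60.6 and 69.6 CPM in Bach2 non-Tfh libraries, against 40.7 and 40.1 CPM in empty vector non-Tfh libraries (log2 0.69, adjusted p = 0.0311). The groups of both genes did not overlap. Without replicate 1 of empty vector non-Tfh cells 0 of the 3 calls in non-Tfh cells passed, and without any other 1 of the 4 non-Tfh libraries the count was 1; the Gata3 call in Tfh cells was lost without 6 of the 8 libraries (adjusted p between 0.0589 and 0.337), all but those of Bach2 non-Tfh cells.

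**Figure D4:**
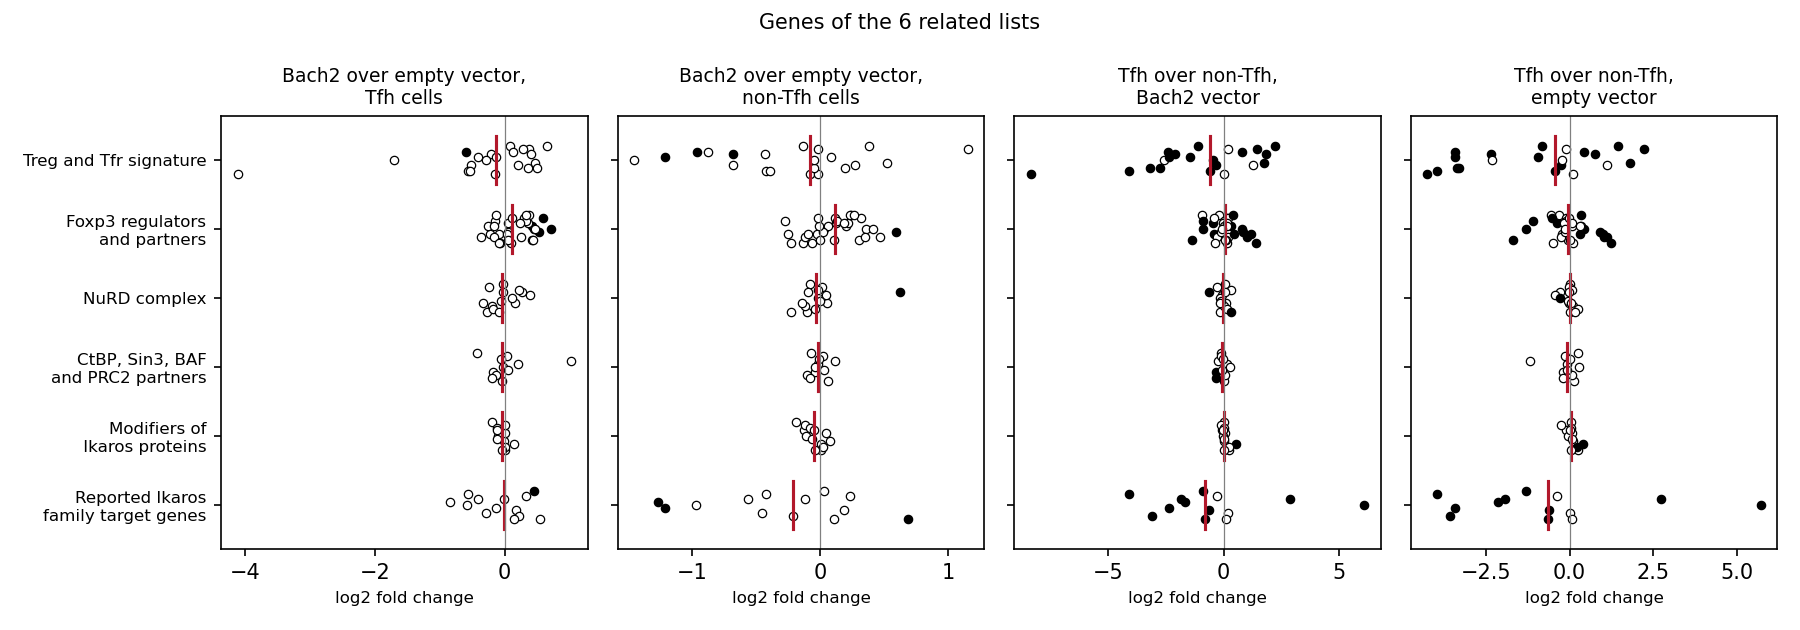
Fitted log2 fold change of every tested gene of 6 related lists (rows) in 4 comparisons (columns, each with its own axis range); filled points passed an adjusted p of 0.05 in edgeR's test and the red bar is the list median. The regulator list has 5 filled points above 0 in the vector panel of Tfh cells, and the signature and target lists spread widest between cell types; the lowest point of the signature list in the left panel and in the Tfh over non-Tfh panel of the Bach2 vector is Klrg1, which had 0 counts in both Bach2 Tfh libraries, so that its fitted value depends on the prior count.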

How the data were processed

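The deposited files hold raw read counts per gene, 1 file a library; the authors aligned reads with TopHat2 and Bowtie2 and counted with featureCounts against GRCm38/mm10, per the submitters' processing notes. Not given in the sources used here: tool versions, annotation release, strand setting and treatment of multi-mapping reads. Libraries were made with the Smart-Seq v4 and Nextera XT kits and read as paired 75-base ends, per the labels' protocols. Gene IDs were matched to GENCODE M21 (37693 matched, 1486 did not). Counts were scaled by TMM factors and filtered with filterByExpr (minimum count 10, total 15); 11475 genes were fitted in all 8 libraries with 1 coefficient per group and 4 residual degrees of freedom (edgeR 4.0.16, robust quasi-likelihood, R 4.3.3; DESeq2 1.42.0 as an alternative). An exact permutation test of 2 against 2 libraries cannot go below p = 0.333. Libraries of a group differed by more than counting noise (chi-square per degree of freedom 5.98 to 9.37), so no pair was treated as 1 library deposited in duplicate. In simulated counts for the vector comparison in non-Tfh cells, 92 of 100 genes changed by a log2 of 1 were called. The simulation gave every gene the same spread beyond counting noise and changed only genes above a minimum count. That share therefore does not cover genes at few counts, such as Ikzf4 and Foxp3. It also does not cover changes smaller than a log2 of 1. The fitted vector effects of Ikzf1, Ikzf2, Ikzf3 and Ikzf5 were all smaller than that. The genes and lists were chosen with earlier results of these data known. Named list genes are the up to 4 with the smallest adjusted p of a comparison; Gata3 in Tfh cells, Ctla4, Tnfrsf18 and the checks fall under the target list, the marker lists or the labels.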

Additional observations from a re-analysis of the deposited data

How the results depend on the processing

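Alternatives were DESeq2 size factors in the edgeR fit, no filter on low counts, DESeq2, only the libraries of the groups compared, a replicate block, leaving out each library and, chosen after seeing the data, a fit without robust estimation. Tfh over non-Tfh calls of Ikzf2 and Ikzf3 passed in 14 of 14 under both vectors. Without the filter, members called numbered 1 for the vector in non-Tfh cells, 1 averaged over cell types, 4 for Tfh over non-Tfh cells with the empty vector, 5 with the Bach2 vector and 1 for the interaction. Of all genes, that fit called 2839 between cell types with the empty vector and 3120 with the Bach2 vector. At the same log2 of 2.90 for Ikzf2 with the empty vector, the edgeR fit without the filter gave an adjusted p of 2.69e-76. The main edgeR fit gave 5.53e-08. Passes without the filter are therefore not on the scale of p of the main fit, and the cause was not tested. DESeq2, and a fit of only the 2 groups, each called 1 for the vector in non-Tfh cells, Ikzf3. Averaged over cell types, leaving out a library gave 0 to 1 (Ikzf3 without replicate 1 of Bach2 Tfh cells, adjusted p = 0.0437). Deviations of same-numbered libraries correlated at -0.0041 to 0.24 over the pairs of groups. The highest values were between the cell types of 1 vector (0.24 for Bach2 and 0.208 for empty vector). The labels give no pairing, so the main fit left the numbers out, and whether same-numbered libraries share a pool was not tested. A replicate block gave 5 members for Tfh over non-Tfh cells with the Bach2 vector, where 3119 of all genes were called. It added Ikzf1 (edgeR, adjusted p = 0.0406) and Foxp3 (0.00726). With the empty vector it added Foxp3 (0.0315), where 2848 of all genes were called. The block turned the Foxp3 interaction to -0.10. Counts over all genes with the block were 473 for the vector in Tfh cells, 207 in non-Tfh cells and 975 averaged, against 196, 100 and 605 without it, and 3 against 0 for the interaction.

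Signs turned only for log2 differences that did not pass, and the cause was not tested. With DESeq2 size factors, DESeq2 and only the groups compared, the vector effect on Ikzf5 in Tfh cells was 0.0014, 0.0015 and 0.0027. Over the fits that leave out a library, vector effects in Tfh cells ranged from -0.28 to 0.23 for Ikzf2, from -0.17 to 0.26 for Ikzf3, from -0.14 to 0.13 for Ikzf5 and from -3.75 to 4.73 for Foxp3. In non-Tfh cells they ranged from -0.27 to 0.0345 for Ikzf1, from -0.0705 to 0.40 for Ikzf5 and from -0.13 to 3.07 for Foxp3. Averaged effects ranged from -0.44 to 0.50 for Ikzf4, from -0.0359 to 0.20 for Ikzf5 and from -1.51 to 2.73 for Foxp3. Tfh over non-Tfh differences of Ikzf4 with the empty vector ranged from -0.88 to 0.46. Interactions ranged from -0.12 to 0.19 for Ikzf1, from -0.40 to 0.0692 for Ikzf5 and from -4.48 to 4 for Foxp3. Counts over all genes without the filter were 736 for the vector in Tfh cells, 332 in non-Tfh cells, 1255 averaged and 37 for the interaction, and DESeq2 gave 326, 161, 685 and 4. Leaving out a library gave 21 to 254 for the vector in Tfh cells, 17 to 133 in non-Tfh cells, 190 to 764 averaged, 1341 to 2698 for Tfh over non-Tfh cells with the empty vector and 1922 to 2735 with the Bach2 vector, against 2515 and 2796 in the full fit. A fit of only the empty vector groups dropped Foxp3 at the filter and gave it no value. At these depths Foxp3 in Tfh cells and Ikzf4 rest on few counts.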
